A study of Homo sapiens with 24 samples.

Results

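The histone genes described here are H1F0, H1FX, H2AFJ, HIST1H1C, HIST1H2BK, HIST1H2BD, HIST1H2AC and HIST2H2BE. They were chosen by name as histone transcripts that can carry a poly(A) tail, and they are 8 of the 58266 gene symbols in the tables. H1F0 led the choice because it fell with matrix stiffness in wild type cells. That difference, and every response set against it, is therefore given below as a description without a test. On which values the other 7 were chosen is unknown here. All 8 have a single entry with status OK in every table, and all 8 passed the filter for testing, which asked for 3 or more libraries with an FPKM of 1 or higher. FPKM is a fragment count scaled by transcript length and by library depth. HIST2H2BE lay just inside that filter, with 5 libraries that reached an FPKM of 1. It would not have passed without those of the LATS1/2 knockout line described below. The other 7 genes reached it in 24 of 24.

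The libraries came from HEK293A, an adherent line of human embryonic kidney origin, grown on hydrogels that were coated with fibronectin and had a stiffness of 1 kPa (soft) or 40 kPa (stiff). The medium was DMEM with 10% FBS, and no other treatment was given. On each stiffness 4 genotypes were sequenced, with 3 libraries per group and 24 in all: WT, a triple knockout labelled RAP2A/B/C-tKO, a double knockout labelled LATS1/2-dKO and a double knockout labelled YAP/TAZ-dKO, written below as RAP2 tKO, as LATS dKO and as YAP/TAZ dKO. The question was how expression changes with the stiffness of the matrix and what these genes have to do with it. The method of editing and the number of clones per line are not stated in the labels, so a clone and its genotype cannot be told apart. The series' text speaks of biological replicates without naming separate cultures, and p-values measure only the spread between these libraries.

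Histones package DNA: core histones H2A, H2B, H3 and H4 form the nucleosome, and linker histones of the H1 family bind where DNA enters and leaves it. Most histone genes are transcribed during DNA replication into mRNAs that lack a poly(A) tail and end in a conserved stem-loop, which is bound by SLBP. Replacement genes such as H1F0 are expressed outside S phase as polyadenylated mRNAs, H1F0 protein accumulates in many cells that stop dividing or differentiate, and some replication genes can make both kinds of mRNA. The LATS1 and LATS2 kinases of the Hippo pathway hold back YAP and TAZ, which are transcriptional coactivators, and RAP2A, RAP2B and RAP2C are small GTPases of the Ras family that act upstream of LATS.

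The 3′ ends are shown because the libraries were made with a kit that selects poly(A) RNA, so a transcript without a tail is measured poorly. The last 30 bases of the GENCODE 29 transcript models (build GRCh38, sense strand, 5′ to 3′) follow, with the polyadenylation hexamer AATAAA in capitals.
H1F0: ttaaAATAAAttggaaaagggagaaactga
H1FX: ttgggcacAATAAAgcgtttaaacctttca
H2AFJ-203: cgggagccAATAAAgttggtgaaaatcgtt
HIST1H2BD: taattAATAAAatctgcggagaattgtaaa
HIST2H2BE: gttattAATAAAgttaccaattaatttaaa
HIST1H2AC-202: agcctggcatgaggtAATAAAaggtaatgc
Of 83129 protein-coding transcripts, 38.4% hold AATAAA or ATTAAA in their last 30 bases. The models of HIST1H2AC and HIST2H2BE also hold the histone stem-loop further upstream, 1114 and 1729 bases before their ends. It is printed with its 16 bases in capitals and 5 bases on each side.
HIST1H2AC: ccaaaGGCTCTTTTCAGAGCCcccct
HIST2H2BE: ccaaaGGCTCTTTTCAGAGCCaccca
The stem-loop consensus was found in 0.0397% of the same transcripts. The models of H1F0, H1FX, H2AFJ and HIST1H2BD had no match to it, and a further coding model of HIST1H2AC, HIST1H2AC-203, holds neither the stem-loop nor the hexamer in its last 30 bases. The models of HIST1H1C (642 bases) and HIST1H2BK (381 bases) hold the coding sequence alone and can show neither feature.

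Library depth, estimated from the deposited 95% intervals of 48 to 59 genes per library, was 19.2 to 42.3 (median 32.5), in units of 1000000 fragments. From 13741 to 14418 genes reached an FPKM of 1 in each library. The targeted transcripts were still read: YAP1 and WWTR1 (TAZ) differed from WT by -2.18 and -1.29 on the log2 scale in YAP/TAZ dKO and LATS1 by -1.08 in LATS dKO, all 3 called. LATS2 differed by 0.32 (adjusted p = 0.091), and RAP2A, RAP2B and RAP2C by -0.31, 0.26 and 0.17 in RAP2 tKO, with only RAP2C uncalled (adjusted p = 0.24). Of the 7 HEK293 markers, KRT8, KRT18, VIM and NEFL were expressed in every library (lowest FPKM 10.7), LHX1 reached 7.02, and PAX2 and NEFM stayed at or below 1.30 and 0.0939. Of 7 markers of other cell types, PTPRC, CD3E, CDH5 and DCN were at or near 0 (at most 0.0641), ALB reached 0.983, COL1A1 ranged from 3.31 to 7.87 and LUM from 0 to 9.02. In the stiff replicate 3 of RAP2 tKO and the stiff replicate 1 of LATS dKO, the change from the 1 kPa libraries followed GC content. Its rank correlation with the change, over genes, was -0.63 and -0.66, against -0.09 to 0.16 in the other stiff libraries of these lines. Weaker trends stood elsewhere: -0.305 to -0.189 in the stiff libraries of YAP/TAZ dKO. Against the other soft libraries of their group, WT soft replicate 3 had -0.42 and RAP2 tKO soft replicates 1 and 3 had 0.38 and -0.34. Only the 2 libraries with the strongest trend are called below those that followed GC content, and the results they change most are also given without them. In bulk RNA, a change in every cell and a change in the share of cells that express a gene cannot be told apart.

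H1F0 encodes H1.0, the replacement linker histone, and is an intronless gene on chromosome 22 (hg19, 38201100 to 38203443, ENSG00000189060.5). In WT the 3 soft libraries read 31.9, 31.6 and 31.6 FPKM and the 3 stiff libraries 21.2, 21.0 and 20.6. In RAP2 tKO they read 30.3, 30.2 and 29.8 on soft and 15.7, 15.98 and 15.1 on stiff matrix. Within both lines every stiff library lay far below every soft one, and replicates of a group differed by little. In LATS dKO the values were 35.9, 36.6 and 35.4 on soft and 27.1, 29.9 and 27.7 on stiff matrix. In YAP/TAZ dKO they were 9.47, 9.11 and 9.95 on soft and 6.77, 7.74 and 6.999 on stiff matrix. The groups of these 2 lines did not overlap either, and every YAP/TAZ dKO library stood below every library of the other genotypes. Among all genes, stiff libraries lay below soft ones without overlap for 16.1% in WT, 15.2% in RAP2 tKO, 11.6% in LATS dKO and 14.4% in YAP/TAZ dKO. YAP/TAZ dKO libraries lay below those of WT without overlap for 20% of genes. The share that lay below all other genotypes is not given here. The deposited 95% interval of H1F0 had a half-width of 3.82% to 9.11% of the value, median 4.83%.

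**Figure D1:**
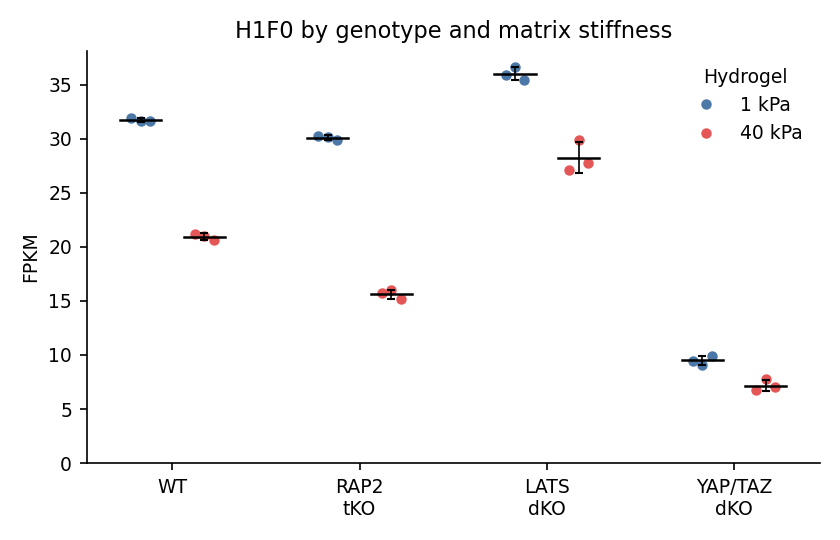
H1F0 FPKM (vertical axis, linear from 0) in 24 libraries by genotype, with soft (1 kPa) and stiff (40 kPa) hydrogels in 2 colours; points are libraries, horizontal bars group means and whiskers the SD over 3 libraries. The stiff libraries sit below the soft ones in each genotype, and the 6 YAP/TAZ dKO libraries, at 6.77 to 9.95, sit below all others.

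Ordered by mean, H1F0 stood highest in LATS dKO on soft matrix (36.0 ± 0.599 FPKM, SD, n = 3), followed by WT on soft (31.7 ± 0.184), RAP2 tKO on soft (30.1 ± 0.233) and LATS dKO on stiff matrix (28.2 ± 1.44). WT on stiff (21.0 ± 0.309), RAP2 tKO on stiff (15.6 ± 0.434), YAP/TAZ dKO on soft (9.51 ± 0.421) and YAP/TAZ dKO on stiff matrix (7.17 ± 0.506) came below. RAP2 tKO on soft and LATS dKO on stiff matrix were the only neighbours in this order whose libraries overlapped.

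From soft to stiff matrix the mean FPKM of H1F0 differed by -34.0% in WT, -48.1% in RAP2 tKO, -21.5% in LATS dKO and -24.6% in YAP/TAZ dKO. On the log2(FPKM + 1) scale, which understates changes of low genes, the WT difference was -0.58 and is a description, because H1F0 was chosen on it. The falls in the other lines were measured in other libraries, but the choice of genes was made with results from all lines known. H1F0 fell by 0.90 in RAP2 tKO (SE 0.05, limma adjusted p = 1.5e-09), by 0.34 in LATS dKO (SE 0.05, adjusted p = 0.0054) and by 0.36 in YAP/TAZ dKO (SE 0.05, adjusted p = 0.00077). Of all genes tested, 3.87%, 0.708% and 0.347% were called in these 3 comparisons, and 2.88%, 0.619% and 0.227% were called lower. Fitted on the 6 libraries of each line alone, the LATS dKO and YAP/TAZ dKO falls were no longer called (adjusted p = 0.522 and 0.0922), while the fall in RAP2 tKO was (adjusted p = 0.015).

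Only 4 genes, 0.0253% of those tested, were called lower on stiff matrix in all 3 knockout lines: H1F0, EMP3 (a tetraspan membrane protein), GNG4 (a G protein gamma subunit) and TPPP3 (a tubulin-binding protein). None of the other 7 histone genes was among them. The set rests on the fit over all 24 libraries. Fitted on the 6 libraries of each line alone, H1F0 was not called in LATS dKO or YAP/TAZ dKO (limma adjusted p = 0.522 and 0.0922). As H1F0 was chosen with results from all lines known, its place in the set is a description.

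The size of the H1F0 response differed between knockout lines. It was less negative in LATS dKO than in RAP2 tKO by 0.56 (SE 0.07, limma adjusted p = 0.00042) and less negative in YAP/TAZ dKO than in RAP2 tKO by 0.54 (SE 0.07, adjusted p = 0.00026). The first test called 0.171% of all genes and the second 0.613%. YAP/TAZ dKO and LATS dKO differed by -0.02 in this response, with a 95% interval from -0.16 to 0.12 (adjusted p = 0.99), and 0.0821% of genes were called there. These tests share the RAP2 tKO libraries or the LATS dKO libraries. Against the WT response, described without a test, the responses differed by -0.33 in RAP2 tKO, 0.24 in LATS dKO and 0.21 in YAP/TAZ dKO.

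Genotypes were compared as the mean of the differences at both stiffnesses, and all 3 comparisons share the 6 WT libraries. H1F0 differed between YAP/TAZ dKO and WT by -1.53 on the log2 scale (SE 0.03, limma adjusted p = 3.1e-17), where 50.6% of genes were called. Its mean was 3.34-fold lower on soft and 2.92-fold lower on stiff matrix. The 6 libraries of each genotype did not overlap, as was so for 20% of genes in the lower direction. In LATS dKO H1F0 was higher by 0.29 (SE 0.03, adjusted p = 1.4e-06; 33.9% of genes called), at 1.13 times the WT level on soft and 1.35 times on stiff matrix. In RAP2 tKO it was lower by 0.24 (SE 0.03, adjusted p = 6.4e-05; 16% of genes called). There the ratio to WT was 0.949 on soft and 0.745 on stiff matrix.

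The HEK293 markers moved with genotype too. In YAP/TAZ dKO the keratin genes KRT8 and KRT18 were lower by 2.50 and 1.80 and VIM by 0.50. The neurofilament gene NEFL was higher there by 4.85, LHX1 by 0.87 and PAX2, at low FPKM, by 0.52. In LATS dKO KRT8, KRT18 and NEFL were higher by 1.42, 1.18 and 0.19, while LHX1 and PAX2 were lower by 1.32 and 0.26. In RAP2 tKO KRT8, KRT18 and VIM were higher by 0.66, 0.55 and 0.24 and NEFL lower by 0.34. The summed FPKM of the 7 HEK293 markers lay between 518 and 547 in WT on soft, 700.2 and 730.3 in WT on stiff, 1121 and 1191 in LATS dKO, 675 and 835 in YAP/TAZ dKO and 771 and 899.8 in RAP2 tKO. In YAP/TAZ dKO most of the HEK293 marker sum was NEFL, with means of 535 FPKM on soft and 457 on stiff matrix. The markers of other cell types summed to 13.1 to 16.7 in LATS dKO and 4.59 to 7.61 elsewhere, and in LATS dKO most of that was LUM. The part of these shifts in the H1F0 values was not tested.

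HIST1H1C encodes H1.2, a linker histone of the replication-dependent cluster on chromosome 6 (hg19, 26056015 to 26056656, ENSG00000187837.3). Its YAP/TAZ dKO libraries read 39.1, 33.3 and 38.9 FPKM on soft and 37.6, 34.5 and 34.6 on stiff matrix. The WT libraries read 16.1, 15.6 and 14.4 on soft and 18.2, 14.6 and 17.1 on stiff matrix. Every YAP/TAZ dKO library stood above every WT library, which held for 17.0% of genes in that direction. The difference was 1.14 on the log2 scale (SE 0.10, limma adjusted p = 2.6e-08), so that HIST1H1C rose in the line where H1F0 fell.

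In LATS dKO HIST1H1C read 22.8, 16.7 and 20.7 FPKM on soft and 25.1, 20.1 and 20.8 on stiff matrix, and in RAP2 tKO 24.6, 20.8 and 22.9 on soft and 18.6, 20.6 and 12.5 on stiff matrix. The LATS dKO libraries were higher than WT as a group, by 0.37 (SE 0.10, adjusted p = 0.0085), with some overlap across stiffnesses. The RAP2 tKO difference of 0.28 was not called (adjusted p = 0.069). Without the 2 libraries that followed GC content, of which the RAP2 tKO one read lowest, it was 0.38 (adjusted p = 0.0013). Stiffness gave no call for HIST1H1C in any knockout line, with differences of -0.40 in RAP2 tKO (adjusted p = 0.12), 0.13 in LATS dKO and -0.06 in YAP/TAZ dKO. Without the 2 libraries that followed GC content these were -0.20 in RAP2 tKO (adjusted p = 0.35) and 0.04 in LATS dKO. The RAP2 tKO value was -0.25 with a correction for GC content (adjusted p = 0.30), and it was called without stiff replicate 2 (-0.54, adjusted p = 0.042), which leaves the replicate that followed GC content as 1 of 2 stiff libraries.

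The ratio of H1F0 to HIST1H1C within a library sets these opposite changes side by side. FPKM is per length, but the HIST1H1C model lacks UTRs and reads outside the coding sequence are not counted with it, so the ratio serves only to compare groups. It was 2.07 ± 0.109 in WT on soft and 1.27 ± 0.149 on stiff matrix (SD, n = 3). In LATS dKO it was 1.83 ± 0.323 and 1.30 ± 0.203, and in RAP2 tKO 1.33 ± 0.111 and 0.942 ± 0.232. In YAP/TAZ dKO it was 0.257 ± 0.0159 on soft and 0.202 ± 0.0222 on stiff matrix, and every library there lay below those of the other lines. Without the libraries that followed GC content the mean was 0.809 in RAP2 tKO and 1.41 in LATS dKO on stiff matrix (n = 2 each). The summed FPKM of both genes spanned a narrower range, from 32.9 ± 4.65 in RAP2 tKO on stiff matrix (35.5 without its replicate 3) to 56.1 ± 2.68 in LATS dKO on soft matrix, with 46.6 ± 3.65 in YAP/TAZ dKO and 47.1 ± 1.00 in WT on soft matrix. As a share of the FPKM of the 3 linker genes H1F0, H1FX and HIST1H1C, H1F0 made up 24.7% ± 2.03 in WT on soft and 8.43% ± 0.219 in YAP/TAZ dKO on soft matrix, and HIST1H1C 11.9% ± 0.531 and 32.9% ± 2.55. On stiff matrix H1F0 made up 19.9% ± 0.722 in WT and 7.29% ± 0.649 in YAP/TAZ dKO.

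**Figure D2:**
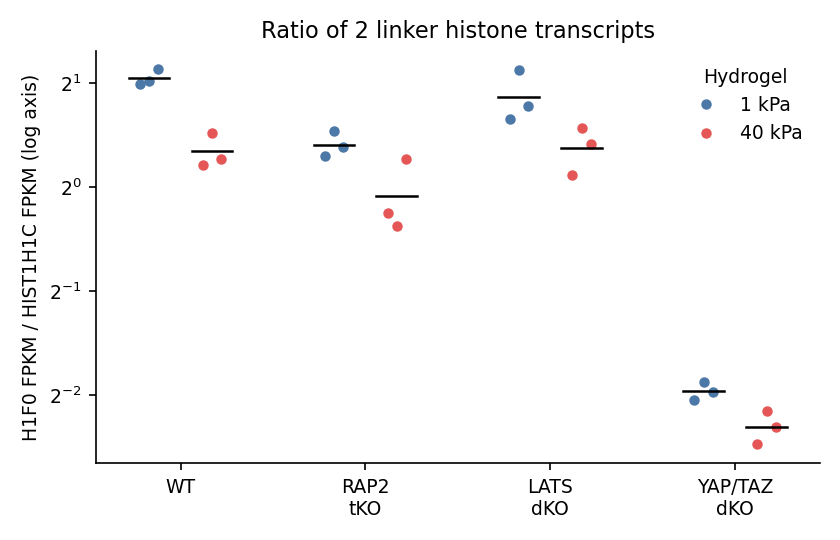
Ratio of H1F0 FPKM to HIST1H1C FPKM in each of 24 libraries (vertical log axis in powers of 2) by genotype and hydrogel stiffness; points are libraries and bars group means. The YAP/TAZ dKO libraries lie at 0.18 to 0.27, and the other 18 at 0.775 to 2.19.

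H1FX encodes H1.10, a divergent linker histone whose gene lies on chromosome 3 (hg19, 129033614 to 129035120, ENSG00000184897.5). It had the highest level of the 8, with a median over libraries of 68.7 FPKM. Its transcript is 68.6% GC, above 99.4% of tested genes, and its entry shares 886 bases with H1FX-AS1, listed at a mean FPKM of 4.82; the strand setting of the counting is not stated, so their reads cannot be told apart. In RAP2 tKO the libraries read 99.1, 91.5 and 84.4 on soft and 71.6, 71.8 and 21.8 on stiff matrix. In LATS dKO they read 59.8, 57.4 and 66.2 on soft and 29.6, 87.1 and 71.3 on stiff matrix. The lowest library of each line was the one whose change followed GC content, at 0.304 and 0.374 times the mean of the other 2 libraries of its group.

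WT read 83.7, 90.5 and 71.3 on soft and 68.8, 65.8 and 68.7 on stiff matrix, and YAP/TAZ dKO 61.0, 65.6 and 72.4 on soft and 57.7, 55.3 and 54.2 on stiff matrix. In both lines the stiff libraries lay below the soft ones without overlap, by little. This also held for 16.1% of all genes in WT and 14.4% in YAP/TAZ dKO. Without a correction for GC content, no limma comparison over all 24 libraries called H1FX: stiffness gave -0.90 in RAP2 tKO (adjusted p = 0.15), -0.10 in LATS dKO and -0.24 in YAP/TAZ dKO. Without the 2 libraries that followed GC content, these became -0.35 (adjusted p = 0.056) in RAP2 tKO and 0.36 (adjusted p = 0.057) in LATS dKO, so the latter changed sign. The YAP/TAZ dKO difference from WT, -0.29 (adjusted p = 0.36), was called once those libraries no longer widened the shared spread (adjusted p = 0.00087). Without them the response in LATS dKO also exceeded that in RAP2 tKO (0.71, adjusted p = 0.031) and that in YAP/TAZ dKO, the YAP/TAZ dKO response minus it being -0.61 (adjusted p = 0.028). A correction for GC content, applied to all 24 libraries, called H1FX lower on stiff matrix in RAP2 tKO (-0.31, adjusted p = 0.033) and lower than WT in LATS dKO (-0.16, adjusted p = 0.038) and YAP/TAZ dKO (-0.49, adjusted p = 8.0e-07). The stiffness difference of H1FX in YAP/TAZ dKO ran from -0.30 to -0.03 over 14 alternative settings, without a call.

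**Figure D3:**
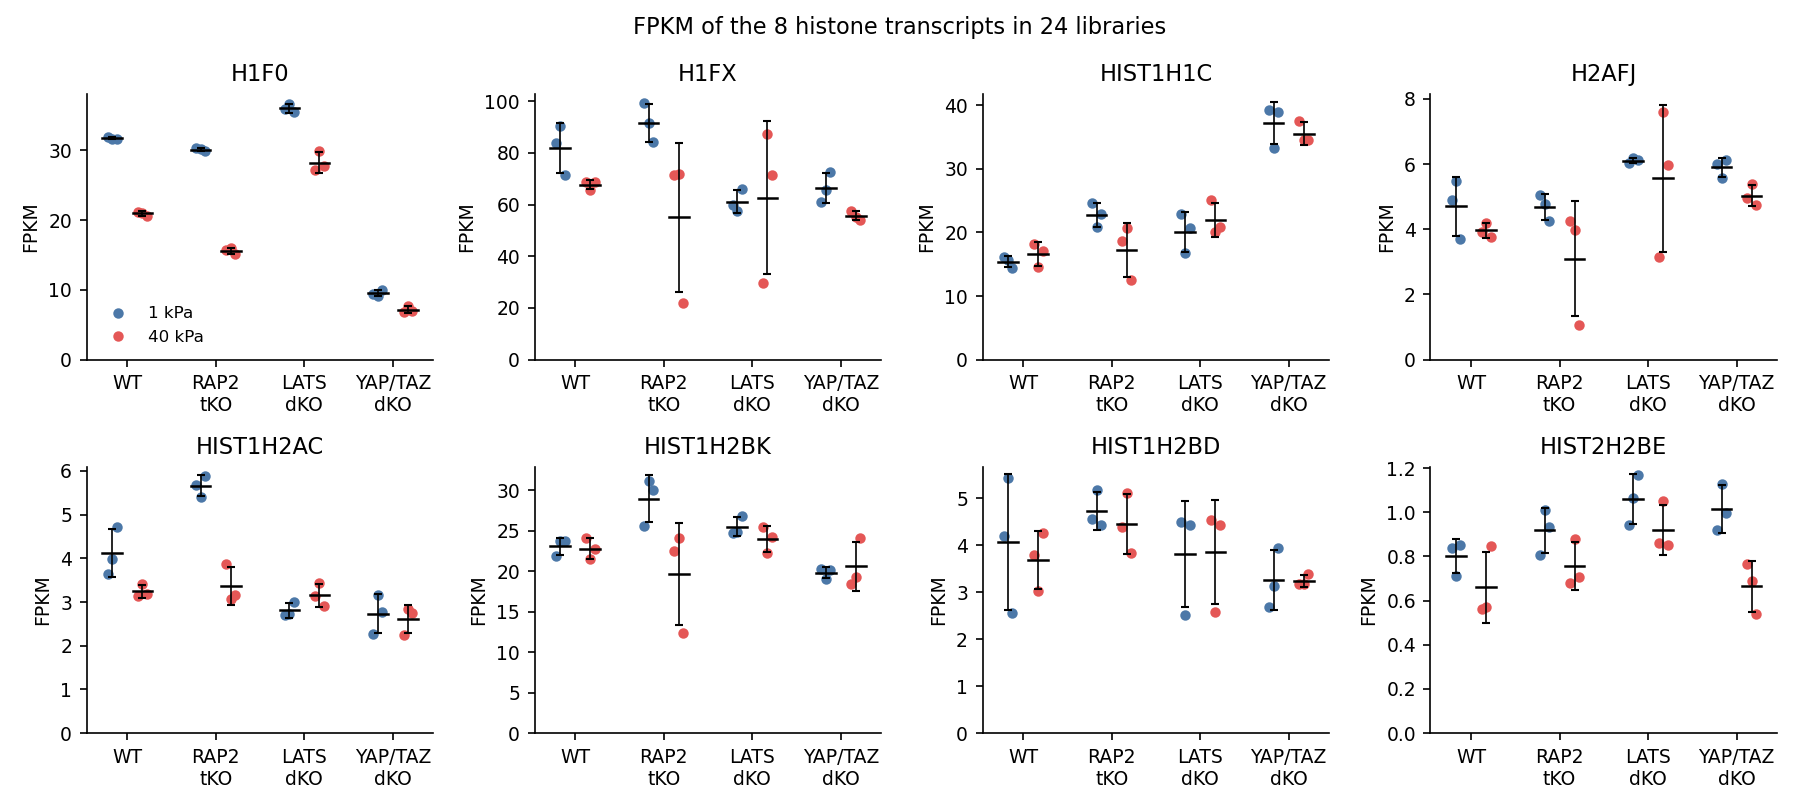
FPKM (vertical axes, linear from 0, a separate scale per panel) of the 8 histone genes in 24 libraries by genotype and hydrogel stiffness; points are libraries, bars means and whiskers the SD over 3 libraries. H1F0 and HIST1H1C separate YAP/TAZ dKO from the other lines in opposite directions, and single stiff libraries of RAP2 tKO and LATS dKO stand low for H1FX and H2AFJ.

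Among the core histones, HIST1H2AC, an H2A gene of the chromosome 6 cluster (hg19, 26124373 to 26139344, ENSG00000180573.9), moved in the most comparisons. In RAP2 tKO its libraries read 5.69, 5.41 and 5.89 FPKM on soft and 3.87, 3.07 and 3.17 on stiff matrix. In WT they read 3.65, 3.99 and 4.72 on soft and 3.15, 3.42 and 3.18 on stiff matrix. The soft RAP2 tKO libraries were the highest of all 24. HIST1H2AC fell with stiffness in RAP2 tKO by 0.61 (SE 0.10, limma adjusted p = 0.0017), a call lost when only the 6 libraries of that line were fitted (adjusted p = 0.219).

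In LATS dKO HIST1H2AC read 2.71, 2.72 and 3.01 on soft and 3.13, 3.43 and 2.90 on stiff matrix, and in YAP/TAZ dKO 2.27, 3.15 and 2.78 on soft and 2.25, 2.84 and 2.74 on stiff matrix. The soft and stiff libraries overlapped in both lines, and stiffness gave 0.12 and -0.05 without a call. Its response in LATS dKO exceeded that in RAP2 tKO by 0.74 (SE 0.14, adjusted p = 0.032). Against WT, HIST1H2AC was lower in LATS dKO by 0.23 (SE 0.07, limma adjusted p = 0.016) and in YAP/TAZ dKO by 0.35 (SE 0.07, adjusted p = 0.00036). It was higher in RAP2 tKO by 0.21 (SE 0.07, adjusted p = 0.044). On soft and stiff matrix the ratios to WT were 0.683 and 0.971 in LATS dKO, 0.664 and 0.803 in YAP/TAZ dKO and 1.38 and 1.04 in RAP2 tKO. The stiff libraries of LATS dKO and of RAP2 tKO overlapped those of WT. The RAP2 tKO call held in 7 of 20 alternative settings. It was lost on leaving out any of 9 single libraries, with adjusted p-values up to 0.116: soft replicates 1 and 2 and every stiff replicate of WT, every soft replicate of RAP2 tKO and its stiff replicate 1. The difference between LATS dKO and RAP2 tKO in the response was lost without any single soft library of either line, RAP2 tKO stiff replicates 2 or 3 or LATS dKO stiff replicate 2 (adjusted p up to 0.107). Without RAP2 tKO stiff replicate 1, the response in YAP/TAZ dKO also differed from that in RAP2 tKO (0.65, adjusted p = 0.043, against 0.57 and 0.081 with it).

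HIST1H2BK, an H2B gene of the same cluster (hg19 chromosome 6, 27114197 to 27114577, ENSG00000197903.7), read 25.7, 31.2 and 30.1 FPKM on soft and 22.5, 24.1 and 12.4 on stiff matrix in RAP2 tKO. The stiff libraries were lower without overlap, as was so for 15.2% of all genes in that line. Replicate 3, the one that followed GC content, was far below the others. The fall of 0.58 (SE 0.16, limma adjusted p = 0.048) was called in only 2 of 14 alternative settings and without the 2 libraries that followed GC content it was 0.30 (adjusted p = 0.085). Each soft RAP2 tKO replicate left out alone also ended the call (adjusted p up to 0.143). In the 6 groups of the other lines HIST1H2BK had means between 19.8 and 25.5 FPKM, and no other comparison in the main fit called it. Its difference of YAP/TAZ dKO from WT, -0.18 (limma adjusted p = 0.20), was called in 3 of 20 alternative settings (lowest adjusted p = 0.017). These left out the 2 libraries that followed GC content, corrected for GC content or fitted only the groups compared.

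H2AFJ encodes H2A.J, a replacement H2A (hg19 chromosome 12, 14927317 to 14930936, ENSG00000246705.4). Its lowest libraries, 1.06 FPKM (RAP2 tKO) and 3.14 FPKM (LATS dKO), were again those whose change followed GC content, against 3.71 to 7.60 in the other 22. The coding model of H2AFJ is 62.9% GC and the longest model, used for the GC values, 42.6%. No comparison called H2AFJ. Its differences from WT were 0.34 in LATS dKO (adjusted p = 0.19) and 0.28 in YAP/TAZ dKO (adjusted p = 0.23). Without the 2 libraries they were 0.49 (adjusted p = 5.3e-05) and 0.28 (adjusted p = 0.0022), both called. LATS dKO stiff replicate 1 alone decided the first call (adjusted p = 0.04 without it).

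HIST2H2BE, an H2B gene on chromosome 1 (hg19, 149856010 to 149858232, ENSG00000184678.8), had the lowest level of the 8, from 0.540 to 1.17 FPKM. In LATS dKO it read 0.943, 1.07 and 1.17 on soft and 0.858, 1.05 and 0.853 on stiff matrix, above all WT libraries, which spanned 0.563 to 0.852, though the lowest LATS dKO library only just. Among all genes 8.83% were higher in LATS dKO without overlap, and the difference for HIST2H2BE was 0.20 (SE 0.06, limma adjusted p = 0.018). Outside LATS dKO only soft replicate 2 of RAP2 tKO (1.01) and of YAP/TAZ dKO (1.13) reached an FPKM of 1. HIST2H2BE thus passed the filter only through the line in which it was high, and its call there is a description without weight as a test. HIST1H2BD, an H2B gene on chromosome 6 (hg19, 26158374 to 26171577, ENSG00000158373.8), was called in no comparison. Its group means ran from 3.24 ± 0.125 FPKM in YAP/TAZ dKO on stiff to 4.72 ± 0.403 in RAP2 tKO on soft matrix (SD, n = 3). Its libraries spanned 2.51 to 5.44 FPKM, and those of every line overlapped the WT libraries, and its deposited intervals were wide, with a median half-width of 29.6% of the value.

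**Figure D4:**
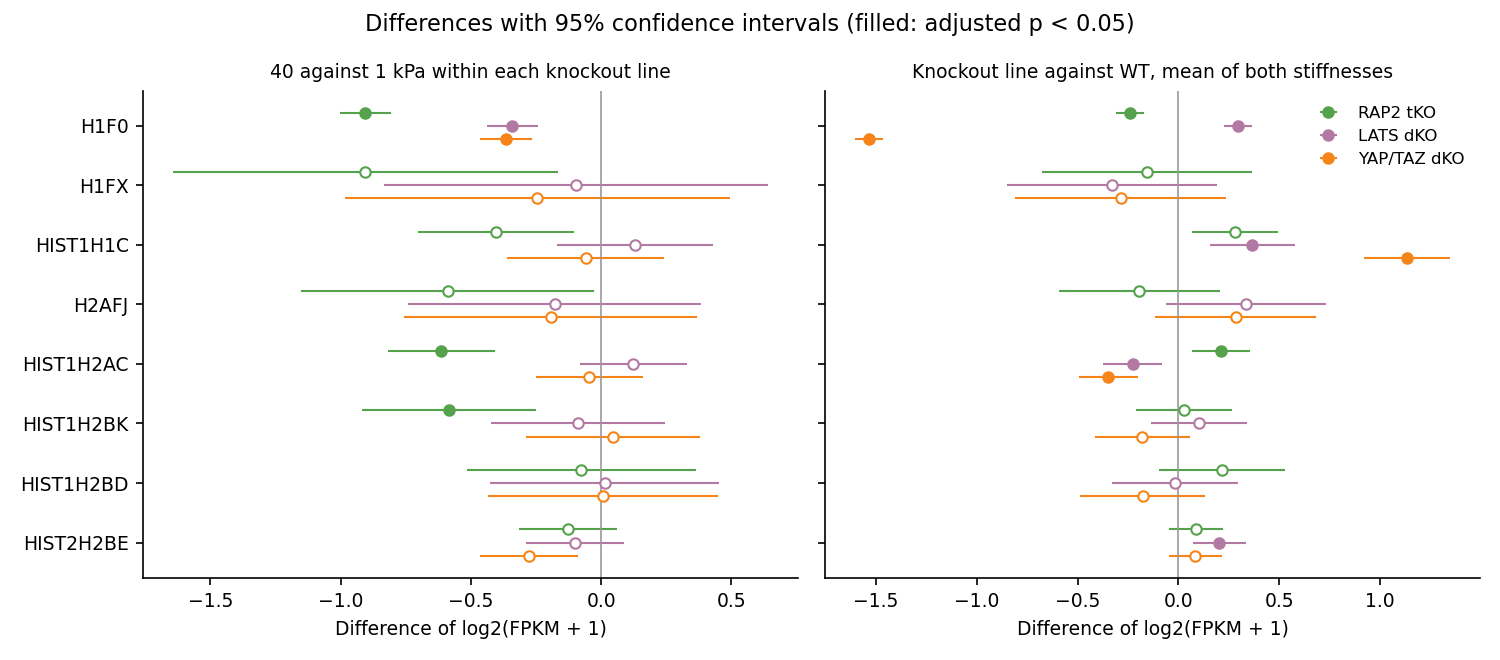
Differences of log2(FPKM + 1) (horizontal axes) for the 8 histone genes, with stiff against soft matrix in each knockout line on the left and each knockout line against WT on the right; points are limma estimates, lines 95% confidence intervals, and filled points have an adjusted p below 0.05. H1F0 is filled in all 6 comparisons, and the intervals of H1FX and H2AFJ are the widest.

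By count, stiffness called 3 of the 8 in RAP2 tKO (H1F0, HIST1H2AC and HIST1H2BK, all lower), against 2.88% of all genes lower, and 1 of 8, H1F0, in each of LATS dKO and YAP/TAZ dKO, against 0.619% and 0.227%. The median difference of the 8 was -0.59 in RAP2 tKO, -0.09 in LATS dKO and -0.13 in YAP/TAZ dKO, beside -0.04, -0.03 and -0.01 over all genes. The median was -0.25 in RAP2 tKO and -0.02 in LATS dKO without the 2 libraries that followed GC content, and with the GC correction it was -0.31 in RAP2 tKO, -0.01 in LATS dKO and -0.05 in YAP/TAZ dKO. In RAP2 tKO 156 genes were called higher and 456 lower over all genes, a split that became 337 and 322 after scaling to a common median ratio. In LATS dKO 14 and 98 became 16 and 35. Against WT, 2 of the 8 were called in RAP2 tKO, 4 in LATS dKO and 3 in YAP/TAZ dKO, beside 16%, 33.9% and 50.6% of all genes. The 4 include HIST2H2BE, which passed the filter only through LATS dKO. Without the 2 libraries that followed GC content 6 of the 8 were called in YAP/TAZ dKO, beside 61.6% of all genes, so whether the share of the 8 lay above or below that of all genes depended on the setting. The members were chosen with results in view, and these counts support nothing beyond their own values. No limma test called any of the 8 for a different response in YAP/TAZ dKO and LATS dKO, and at an unadjusted p below 0.05 the count was also 0 of 8. The share of all genes at that unadjusted threshold is not given here.

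The replication-dependent histone genes, whose mRNAs mostly lack a poly(A) tail, were read at low levels. Of 65 listed, 19 passed the filter, and the 65 together summed to between 29.6 and 62.3 FPKM per library. The highest of the 19 were HIST1H2BJ (median 9.86 FPKM) and HIST3H2A (9.69). None of the 19 was called by limma for stiffness in RAP2 tKO, LATS dKO or YAP/TAZ dKO, with 1, 1 and 3 at an unadjusted p below 0.05. Their median stiffness difference was -0.11 in RAP2 tKO, 0.02 in LATS dKO and -0.25 in YAP/TAZ dKO, where 18 of 19 lay below 0, beside -0.04, -0.03 and -0.01 over all genes. Against WT, 1 was higher and 2 lower in LATS dKO and 3 higher and 4 lower in YAP/TAZ dKO, while none was called in RAP2 tKO (2 at an unadjusted p below 0.05). Over all genes, 33.9%, 50.6% and 16% were called in these comparisons. The share of all genes at that unadjusted threshold is not given, so the unadjusted counts here and below are descriptions alone. HIST1H4C, an H4 gene, was lower in both LATS dKO (-0.84, adjusted p = 0.0016) and YAP/TAZ dKO (-0.80, adjusted p = 0.0013), and HIST3H2A was higher in YAP/TAZ dKO by 0.74 (adjusted p = 0.00015). The median of the 19 in YAP/TAZ dKO was -0.22, beside 0.00 over all genes.

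Other replacement histones ranged widely in level, from H2AFZ (H2A.Z, median 872 FPKM) and H3F3B (an H3.3 gene, 443 FPKM) to CENPA (32.0 FPKM) and H3F3A (another H3.3 gene, 2.25 FPKM). Of 8 tested, none was called for stiffness in a knockout line, while at an unadjusted p below 0.05 there was 1 in RAP2 tKO, and there were 2 in LATS dKO and 1 in YAP/TAZ dKO. Against WT, YAP/TAZ dKO had 3 higher and 1 lower: H3F3B rose by 0.52 (adjusted p = 0.00051), H2AFY2 (a macroH2A) by 0.35 (adjusted p = 6.4e-08) and H2AFZ by 0.13 (adjusted p = 0.019), and CENPA, the centromeric H3, fell by 0.31 (adjusted p = 6.1e-05). In LATS dKO H2AFY rose by 0.15 (adjusted p = 0.027) and H2AFZ fell by 0.17 (adjusted p = 0.0057). Over all genes, 50.6% were called against WT in YAP/TAZ dKO and 33.9% in LATS dKO.

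For the lists that follow, the share of all genes called against WT was 50.6% in YAP/TAZ dKO, 33.9% in LATS dKO and 16% in RAP2 tKO. Of 16 genes that process histone mRNA, only NCBP1, a cap-binding subunit, was called for stiffness (0.29 in RAP2 tKO, adjusted p = 0.017). Compared with WT, 4 were higher and 6 lower in YAP/TAZ dKO. SLBP, which binds the stem-loop, rose by 0.15 (adjusted p = 0.0034), NPAT, a coactivator of histone gene transcription, fell by 0.53 (adjusted p = 1.1e-05) and CSTF2T, a polyadenylation factor, rose by 0.76 (adjusted p = 9.9e-11). In LATS dKO 4 were higher and 2 lower, SLBP among the higher (0.14, adjusted p = 0.0071), and in RAP2 tKO 1 was higher and 2 lower. Of 20 histone chaperones, 10 were higher and 4 lower in YAP/TAZ dKO, 3 and 4 in LATS dKO, and 3 and 0 in RAP2 tKO. Stiffness called UBN1, an H3.3 chaperone subunit, higher in RAP2 tKO (0.24, adjusted p = 0.023) and no other chaperone. ASF1A rose by 0.28 and its paralog ASF1B fell by 0.56 in YAP/TAZ dKO (adjusted p = 3.4e-05 and 4.4e-05).

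The levels of S-phase genes bear on histone mRNA made during replication. Of 17 tested, stiffness called RRM2 in LATS dKO (0.36, adjusted p = 0.032) and none in RAP2 tKO or YAP/TAZ dKO, where 5 and 2 had an unadjusted p below 0.05. In YAP/TAZ dKO 4 were higher than in WT, GINS2 by 0.59 (adjusted p = 1.4e-10) the most, and 6 lower, among them MCM7 (-0.44, adjusted p = 2.6e-06). In LATS dKO 1 was higher and 6 lower, among them PCNA (-0.35, adjusted p = 3.2e-08). In RAP2 tKO 3 were higher and 1 lower. Their summed FPKM lay between 3079 and 3346 in all 24 libraries. Of 10 high mobility group genes, which encode other chromatin proteins that compete with or bend DNA beside linker histones, stiffness called none. Against WT 4 were higher and 2 lower in YAP/TAZ dKO, with HMGA2 at -0.57 (adjusted p = 6.2e-08). In LATS dKO 5 were higher and 1 lower, with HMGA2 at 0.24 (adjusted p = 0.0024), and in RAP2 tKO 1 was higher.

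Whether neighbours on the chromosome moved alike was read from the 40 tested genes nearest to each histone gene, other histones left out. Around H1F0 their median difference from WT was -0.12 in YAP/TAZ dKO, and 1 of the 40 lay below the -1.53 of H1F0. In LATS dKO their median was -0.14 with 39 of 40 below the 0.29 of H1F0. In RAP2 tKO, however, the median was -0.22, close to the -0.24 of H1F0, and 19 of 40 lay below it, beside 0.00 over all genes tested. From soft to stiff matrix the median of the same neighbours was -0.17 in RAP2 tKO, -0.11 in LATS dKO and -0.07 in YAP/TAZ dKO. Beside them, 0, 2 and 4 of the 40 lay below H1F0. For the response of RAP2 tKO minus WT their median was -0.19, and 7 of 40 lay below the -0.33 of H1F0. The part of these regional differences in the H1F0 values was not tested. HIST1H1C, HIST1H2AC and HIST1H2BD share the same 40 neighbours, with a median of 0.22 in YAP/TAZ dKO. HIST1H1C exceeded 40 of 40 of them and HIST1H2AC 1 of 40. Around H1FX the median in YAP/TAZ dKO was -0.75, lower than the -0.29 of H1FX itself, and 33 of 40 lay below it. Around H2AFJ it was -0.27, with 39 of 40 below the 0.28 of H2AFJ, and around HIST2H2BE it was 0.04, with 22 of 40 below the 0.08 of HIST2H2BE.

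**Figure D5:**
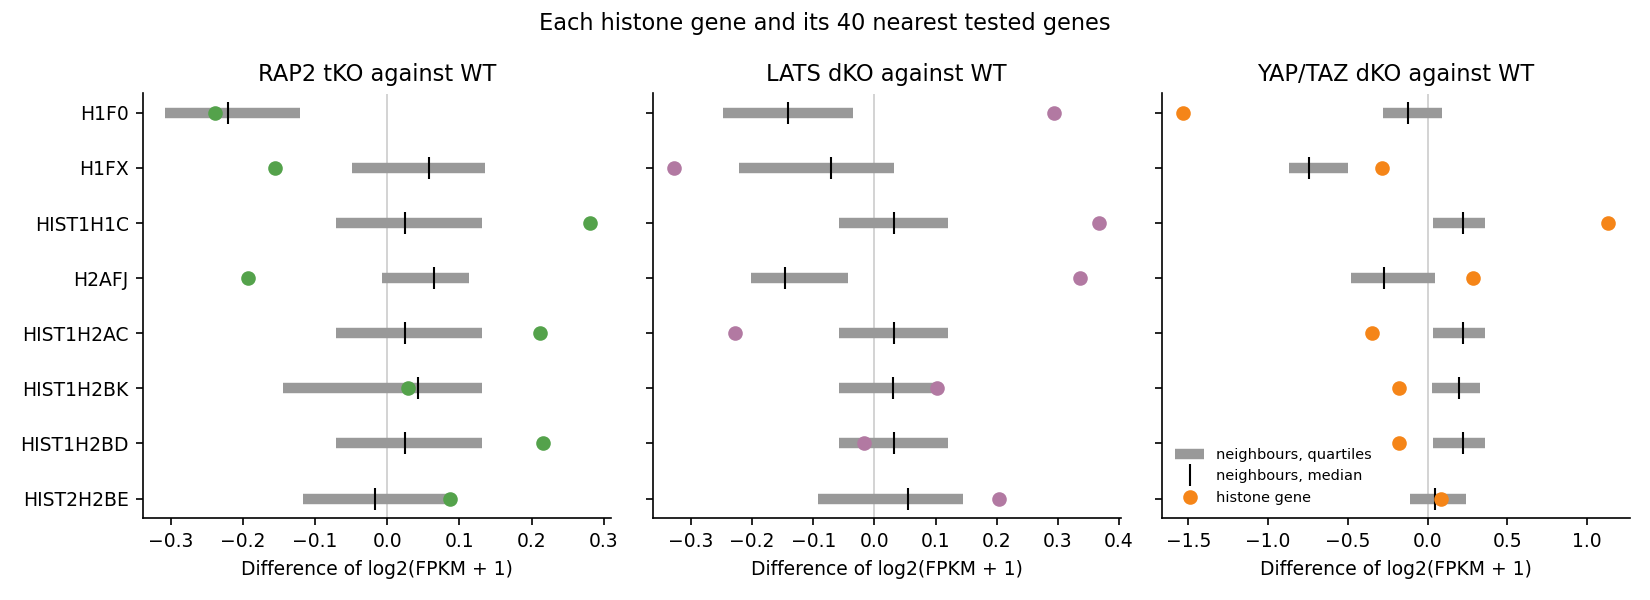
Difference of log2(FPKM + 1) from WT (horizontal axes) for each histone gene (points) and its 40 nearest tested genes (black tick for the median, grey bar from the lower to the upper quartile), with 1 panel per knockout line on its own scale. In YAP/TAZ dKO H1F0 at -1.53 and HIST1H1C at 1.14 lie outside the grey bars, while in RAP2 tKO H1F0 at -0.24 lies inside its bar.

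The promoters of HIST1H1C and HIST1H2AC are shown because these genes lie in the same cluster and moved in opposite directions in YAP/TAZ dKO. In LATS dKO they also did so as the mean of both stiffnesses, HIST1H2AC mainly on soft matrix. The sequences are RefSeq's (GRCh38.p14), from 250 bases before to 50 after the gene's start, 5′ to 3′ on the gene's strand, and a promoter sequence was matched for 7 of the 8 genes. Searched on both strands were the H1 box AAACACA, the octamer ATTTGCAT of H2B promoters and the CCAAT box, and matches are in capitals. TATAAA was searched as well, and its matches are left in small letters. None of these motifs overlaps another.
HIST1H1C, chr6:26056421-26056720, minus strand: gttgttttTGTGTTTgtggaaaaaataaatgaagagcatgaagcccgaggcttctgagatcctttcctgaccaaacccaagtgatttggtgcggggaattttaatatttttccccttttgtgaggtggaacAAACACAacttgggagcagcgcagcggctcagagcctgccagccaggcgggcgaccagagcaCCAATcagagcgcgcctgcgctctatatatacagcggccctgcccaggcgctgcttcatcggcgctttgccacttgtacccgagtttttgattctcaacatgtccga
HIST1H2AC, chr6:26123922-26124221, plus strand: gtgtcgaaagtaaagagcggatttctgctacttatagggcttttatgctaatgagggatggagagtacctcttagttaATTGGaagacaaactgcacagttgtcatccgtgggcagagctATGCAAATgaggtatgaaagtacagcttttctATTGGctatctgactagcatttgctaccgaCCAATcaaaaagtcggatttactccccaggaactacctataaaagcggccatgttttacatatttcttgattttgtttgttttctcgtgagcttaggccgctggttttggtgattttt
The HIST1H1C promoter holds the H1 box 2 times and the CCAAT box 1 time. The HIST1H2AC promoter holds the octamer 1 time and the CCAAT box 3 times, with no H1 box. TATAAA was found 1 time in the HIST1H2AC promoter and not in that of HIST1H1C. Of 27305 promoters of this length, 5.76% hold the H1 box, 1.80% the octamer and 35.7% the CCAAT box. Among the 7 matched genes the H1 box was found only in HIST1H1C, the octamer in 3, the CCAAT box in 6 and TATAAA in 5. A match is a description of the letters and not a site of binding.

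Among 10444 genes with a mean FPKM of at least 5, those whose log2 level followed H1F0 most closely over the 24 libraries were CRABP2, a retinoic acid binding protein (Pearson r = 0.955), F2R, a thrombin receptor (0.953), SERPINB1 (0.952), RFC2, a replication factor C subunit (0.952), and AC156455.1 (0.951). The most opposite were HSPA12A (-0.94), PSMD3 (-0.93), YRDC (-0.93), SLC35F1 (-0.93) and PIK3R3 (-0.93). The libraries fall into groups, and the 6 YAP/TAZ dKO libraries weigh heavily. Over the 18 others the r of the first 5 was between 0.763 and 0.850, and that of the 5 most opposite between -0.829 and -0.574. CRABP2 had a mean of 111.6 and 85.6 FPKM in WT on soft and stiff matrix. It had 162.5 and 126.8 in LATS dKO, 95.6 and 79.2 in RAP2 tKO and 39.6 and 36.3 in YAP/TAZ dKO, so that its order of lines was that of H1F0. Between the members themselves, r over 24 libraries was -0.69 for H1F0 and HIST1H1C, and 0.67 for H1FX and H2AFJ, which share the 2 low libraries named above.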

How the data were processed

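FPKM values of 24 poly(A)-selected libraries were analysed. Per the submitters' processing notes, the authors used STAR 2.4.2a and Cufflinks 2.2.1 on hg19. The deposited tables hold 60350 entries of FPKM, an estimate normalized by length and depth, with 95% intervals. Annotation release, strand setting, treatment of multiply mapped reads and which library got which index set of the kit are not stated in the labels. Entries of a symbol were summed, and 92 symbols without a usable status were left out. Genes that reached an FPKM of 1 in 3 or more libraries (15828) were tested on log2(FPKM + 1) with limma 3.58.1 in R 4.3.3. All 24 libraries entered 1 fit of 8 group means, which left 16 residual degrees of freedom, with a trend of the spread, the test was two-sided, and p-values were adjusted by Benjamini-Hochberg within each of 9 contrasts. "Called" means an adjusted p below 0.05, and adjusted p-values are limma's. On simulated data for the RAP2 tKO stiffness contrast (15828 genes), 65% of changes of 0.5 and 89% of changes of 1 (log2) were recovered. Members and lists were chosen with earlier results of these data known. Named were all members and up to 4 called genes per list and contrast by smallest p. The 5 genes most and least like H1F0 and the targeted genes were also named. SLBP, the markers LHX1 and PAX2 and the 4 genes lower in all 3 knockout lines were named after their values were seen. GC content came from GENCODE 29 transcripts. Alternatives changed the pseudocount, the filter, scaling, the block, the trend, the libraries fitted and, chosen after seeing the data, a GC correction.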

Additional observations from a re-analysis of the deposited data

Results flagged for a closer look

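The response to stiffness differed between lines in 3 tests, each an interaction in the limma fit over all libraries. For H1F0 the log2 response in LATS dKO minus that in RAP2 tKO was 0.56 (adjusted p = 0.000424), since H1F0 fell in both lines and by more in RAP2 tKO. For H1F0 the response in YAP/TAZ dKO minus that in RAP2 tKO was 0.54 (adjusted p = 0.000255). For HIST1H2AC the response in LATS dKO minus that in RAP2 tKO was 0.74 (adjusted p = 0.0319), with a called fall in RAP2 tKO and a difference of 0.12 without a call in LATS dKO. Both H1F0 differences were called in 20 of 20 alternative settings and the HIST1H2AC difference in 8 of 20.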

How the results depend on the processing

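No difference changed sign and stayed called. Shares of all genes called in the same setting are given in brackets. Fitting only the groups compared (fewer residual degrees of freedom) called 1 of the 8 in place of 3 for stiffness in RAP2 tKO (0.0505%). It called 0 in place of 1 in LATS dKO (0.0126%) and in YAP/TAZ dKO (0.354%). Against WT it called 1 in place of 2 in RAP2 tKO (11.9%) and 6 in place of 3 in YAP/TAZ dKO (60.9%). For the response of LATS dKO minus RAP2 tKO it called 1 in place of 2 (0.0505%). A pseudocount of 0.1, and no filter on low FPKM, each gave 1 in place of 2 for RAP2 tKO against WT (15.7% and 6.32%). Each also gave 1 in place of 2 for LATS dKO minus RAP2 tKO (0.139% and 0.0825%). The cause was not tested. Without the 2 libraries that followed GC content, YAP/TAZ dKO against WT gave 6, where 61.6% of all genes were called. The response of YAP/TAZ dKO minus LATS dKO then gave 1, H1FX (-0.61, limma adjusted p = 0.0278), in place of 0, where 3.81% of all genes were called. The GC correction gave 5 for YAP/TAZ dKO against WT, with 56.8% of all genes called. Leaving out 1 library at a time gave 2 to 4 calls for stiffness in RAP2 tKO and 1 in LATS dKO and in YAP/TAZ dKO. Against WT it gave 1 to 3 for RAP2 tKO, 4 to 5 for LATS dKO and 3 for YAP/TAZ dKO. For the responses it gave 1 to 2 for LATS dKO minus RAP2 tKO, 1 to 2 for YAP/TAZ dKO minus RAP2 tKO and 0 for YAP/TAZ dKO minus LATS dKO. The shares of all genes called in these fits are not given here, so these counts describe the calls alone.

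The deviations of same-numbered soft and stiff libraries of a line correlated weakly, between -0.07 and 0.08. Of 24 libraries, 12 correlated best with their own number among the 3 of the other stiffness. These values do not settle whether the replicate numbers pair libraries, and numbers shared across lines were not compared in this way. With the replicate number as a block, stiffness called 2 in RAP2 tKO and 1 in each of the other lines (3.10%, 0.360% and 0.291% of all genes). The genotype comparisons called 3, 4 and 3 (15.3%, 33.3% and 50.25%), and the responses 2, 1 and 0 (0.152%, 0.550% and 0.0632%), in the order above. HIST1H2BK in RAP2 tKO was not called (adjusted p = 0.0692) and HIST1H1C in RAP2 tKO against WT was (adjusted p = 0.0415). Each group has 3 libraries, FPKM holds no counts, and HIST1H2BD and HIST2H2BE are read with wide intervals, which limits the precision of their differences.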
